A study of Mus musculus with 45 samples.

Results

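Fat eaten in a meal is taken up in the small intestine by a chain of steps, and the 10 genes described here encode proteins of that chain. They were chosen by name as the rows Apoa1, Apoa4, Apob, Apoc3, Mttp, Fabp1, Fabp2, Cd36, Scarb1 and Slc27a4 of the deposited RNA-seq table, 10 of 24918 gene entries, and all 10 had 1 entry each. RNA-seq libraries came from 5 mice per group, each of colonic epithelium, the cell layer lining the colon, released from the entire colon with EDTA. All mice were male C57BL/6 by the labels (C57BL/6J in the study's methods) and 6 weeks old at the start. Control mice ate a low-fat diet (LF, 10% fat) for 20 weeks, obese mice a high-fat diet (HF, 60% fat) for 20 weeks, and formerly obese mice (HFLF) the high-fat diet for 15 weeks followed by the low-fat diet for 5 weeks. Per the study's methods, lard was the fat source of both diets, so that the groups are a model of diet-fed obesity in 1 sex and strain at 1 age.

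Long-chain fatty acids enter the enterocyte with the help of membrane proteins such as CD36 and the fatty acid transport proteins, and are carried inside the cell by fatty acid binding proteins. They are then rebuilt into triglyceride, which microsomal triglyceride transfer protein loads onto apolipoprotein B to form chylomicrons, the particles that leave the cell for the lymph. Apolipoproteins A-I, A-IV and C-III ride on these particles. This work is known for the small intestine, while the colonic epithelium absorbs water, salts and short-chain fatty acids.

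In the colon these genes split by level into 5 that were measured well and 5 that were barely detected. Fabp2, Slc27a4, Apob, Scarb1 and Mttp passed the filter on low counts and were tested, and Apoa1, Apoa4, Apoc3, Cd36 and Fabp1 did not, with at most 13 counts in any library. Of the 5 tested genes, Apob was higher in obese and in formerly obese mice than in control mice, while Fabp2 and Slc27a4 were higher in formerly obese mice only against control mice. No gene of the 10 was called lower in any comparison. Calls needed a fold change over 1.2 with p under 0.01 and, after Benjamini-Hochberg adjustment over all tested genes, p under 0.25 in the quasi-likelihood test of edgeR, and these limits are those of the study's methods. In bulk tissue, a lower level from fewer cells of a type and one from less RNA per cell cannot be told apart.

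The libraries held 15230391 to 22762095 gene counts, the most in formerly obese replicate 3. All 7 epithelial markers were abundant, with summed levels of 13300 to 15770 CPM (counts scaled to a common library size), and edgeR called 0 of 7 in each comparison. Hoxb13, a Hox gene of the posterior gut, lay at 231.4 to 399.7 CPM. The Paneth cell defensins, marks of small intestine, reached at most 3 counts in every library, in 10 of 10 entries, and lactase (Lct) reached at most 8. Other genes of these lists were present, with Ang4 at 28.6 to 190.5 CPM, Mep1a at 581.1 to 767.6 CPM, Slc5a1 at 312.6 to 353.2 CPM and Sis at 18.6 to 66.3 CPM. Of 4 tested Paneth cell markers, Lyz1 was higher in obese (3.19 CPM) than in control mice (0.824 CPM), a call kept without each library, and Itln1 was lower, a call that ended without control replicate 1, 2 or 3 or obese replicate 1, 3, 4 or 5 (log2 fold change -1.14 to -0.79). The defining adipocyte genes Adipoq, Plin1, Lep, Cfd and Retn had at most 3 counts in every library. Of the other 5 genes of the adipocyte list, Fabp4 and Plin4 reached at most 6 and 17 counts and were not tested. Pck1 lay at 176.9 to 420.7 CPM, Lipe at 11.4 to 17.4 CPM and Cidec at 2.82 to 12.1 CPM. Pck1, also a gene of glucose synthesis in gut and liver, was lower in obese than in control mice (log2 fold change -0.62), and Cidec was higher in formerly obese than in control mice (0.93), a call that ended without control replicate 2 or formerly obese replicate 1 (0.70 to 0.84). The hepatocyte marker Alb lay at 10.3 CPM in control replicate 5 and at 0.583 to 2.98 CPM in all other libraries. Summed markers ranged from 61.2 to 90.1 CPM for macrophages and leukocytes, from 13.7 to 23.7 CPM for endothelium and from 2.65 to 30.3 CPM for fibroblasts and smooth muscle. The mean sum for fibroblasts and smooth muscle was 7.24 ± 4.26 CPM in control mice (SD, n = 5). It was 11.7 ± 4.51 CPM in obese and 14.2 ± 9.43 CPM in formerly obese mice. All 4 tested genes of that list had a log2 fold change above 0 in both groups (medians 0.66 and 1.09), and 0 were called. Of 8 tested leukocyte markers, 8 were above 0 in obese and 5 in formerly obese mice, and 0 were called.

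The promoters of the 3 called genes are shown because their levels differed between groups, and to let the letters be read beside the levels. Each run holds the 250 bases before the RefSeq start site in GRCm38.p6, 5′ to 3′ on the strand of the gene, with matches to the searched motifs in capitals. The windows are chr12:7977427-7977676 for Apob, chr3:122894822-122895071 for Fabp2 and chr2:29802384-29802633 for Slc27a4, all on the plus strand.
Apob promoter: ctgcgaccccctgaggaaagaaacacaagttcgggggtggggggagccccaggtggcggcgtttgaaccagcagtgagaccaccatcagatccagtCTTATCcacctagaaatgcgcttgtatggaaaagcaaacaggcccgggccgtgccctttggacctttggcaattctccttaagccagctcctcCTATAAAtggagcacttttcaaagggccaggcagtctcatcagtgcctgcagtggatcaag
Fabp2 promoter: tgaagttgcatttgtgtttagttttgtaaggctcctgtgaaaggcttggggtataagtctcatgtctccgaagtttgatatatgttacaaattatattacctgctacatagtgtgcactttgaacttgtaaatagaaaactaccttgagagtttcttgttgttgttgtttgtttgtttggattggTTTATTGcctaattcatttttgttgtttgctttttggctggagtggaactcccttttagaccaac
Slc27a4 promoter: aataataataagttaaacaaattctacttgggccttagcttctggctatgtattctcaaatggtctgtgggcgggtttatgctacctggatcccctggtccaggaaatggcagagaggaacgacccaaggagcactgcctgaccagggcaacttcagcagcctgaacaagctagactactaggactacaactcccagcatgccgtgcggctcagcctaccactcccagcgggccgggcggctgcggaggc
The motifs searched on both strands were CAAAGTCCA for HNF4, GATAAG for GATA factors, GTTAAT for HNF1, TTTATNG for CDX2, TATAAA for the TATA box, and a direct repeat of AGGTCA with 1 base between. The CDX2 and TATA motifs overlap, since the reverse complement of the first shares 5 letters with the second, and in the Apob promoter both matches lie in the run CTATAAA. Apob held a GATA, a CDX2 and a TATA match, Fabp2 a CDX2 match, and Slc27a4 no match. Fabp1, which was barely detected and whose promoter is not printed, held CDX2, HNF1 and TATA matches. No other gene of the 10 with a promoter in the table held a match, so matches did not follow the calls. Among all 32851 promoters of the table, 6.55% held the GATA motif, 6.43% the HNF1 motif, 9.81% the CDX2 motif and 12.4% the TATA motif in the same length. The HNF4 motif and the repeat were in none of the 8 genes that had a promoter in the table, and in 0.38% and 0.03% of all promoters. A match of letters is a description and not a binding site. The CpG content of the windows was 7 for Apob, 1 for Fabp2 and 8 for Slc27a4, against a median of 6 over all promoters.

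Between genes, levels were compared per length, as CPM per kilobase of annotated exon (RPKM). Fabp2, the intestinal fatty acid binding protein, stood highest at 461.9 ± 140.9 RPKM (SD over 15 libraries), above 99.3% of the tested genes. Slc27a4, which encodes fatty acid transport protein 4, followed at 40.0 ± 5.62 RPKM and Apob, the backbone protein of chylomicrons, at 36.1 ± 7.09 RPKM. These neighbours differed by less than their spread, and in obese mice their means were 39.7 RPKM for Slc27a4 and 39.9 RPKM for Apob. Scarb1, the scavenger receptor SR-BI that moves cholesterol, reached 6.20 ± 0.620 RPKM, under the median of 8.05 over all tested genes. Mttp, the lipid loader of apolipoprotein B, reached 0.983 ± 0.169 RPKM, above 15.6% of the tested genes. Apob thus stood 2 ranks above Mttp in the order of levels per length.

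The 5 barely detected genes took the last places. Fabp1, the liver-type binding protein, lay at 0.480 ± 0.258 RPKM, Apoa1 at 0.216 ± 0.252, Apoc3 at 0.139 ± 0.115, Cd36 at 0.0564 ± 0.0391 and Apoa4 at 0.0211 ± 0.0450. The ranges over libraries of all neighbours from Mttp downward overlapped, while those of Apob and Scarb1, and of Scarb1 and Mttp, did not. With 3 counts worth 0.134 to 0.196 CPM, depending on the library, most single values of these genes lay near that limit.

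**Figure D1:**
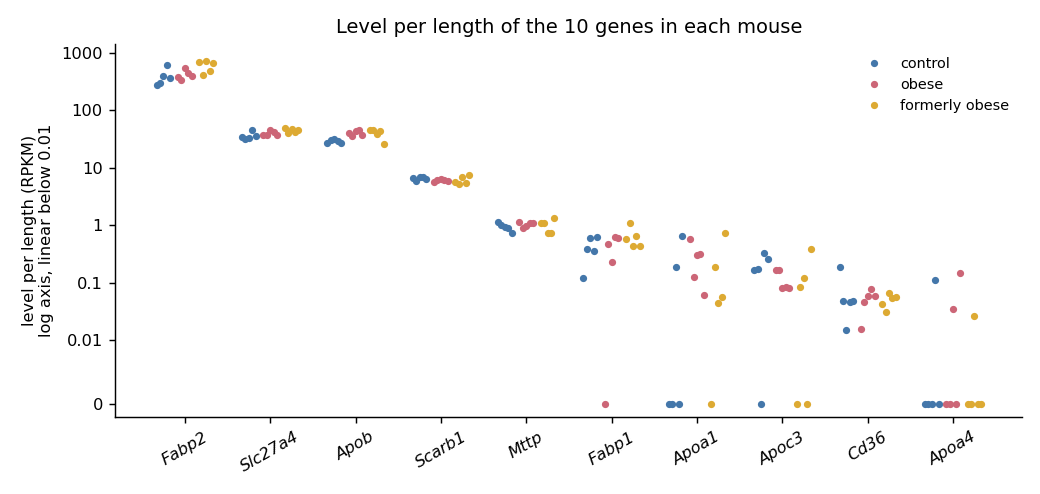
Level per length (RPKM, log axis, linear below 0.01) of the 10 genes, ordered by mean, 1 point per mouse and coloured by group. Fabp2 lies at 269.7 to 712.3 RPKM, and the 5 genes on the right reach at most 1.102 RPKM and, except for Cd36, are at 0 in at least 1 library.

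Which genes of fat uptake differ between obese and control mice was asked first. Apob was the 1 gene of the 5 tested that was called, against a background of 1.58% of all tested genes (205 of 12961, of which 93 were higher). In control mice Apob lay at 372.7, 430.7, 436.8, 411.5 and 381.2 CPM, and in obese mice at 548.9, 487.3, 599.5, 634.5 and 514.4 CPM. Every obese mouse was above every control mouse, as was the case in either direction for 2.47% of all tested genes. The means were 406.6 ± 28.8 CPM (SD, n = 5) and 556.9 ± 60.3 CPM (SD, n = 5), a log2 fold change of 0.45 ± 0.116 (SE) with a 95% interval of 0.21 to 0.70 and an edgeR adjusted p of 0.142. The call ended, with log2 fold changes of 0.40 to 0.48 and edgeR adjusted p of 0.261 to 0.345, without control replicate 1 or 2 or without obese replicate 3, 4 or 5. Over all alternatives the adjusted p ran from 0.0204 to 0.345.

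The other tested genes were not called in obese mice. Slc27a4 lay at 139.3, 125.7, 133.1, 182.9 and 141.6 CPM in control mice and at 149.3, 152.1, 181.4, 171.7 and 151.1 CPM in obese mice. Control replicate 4 lay above all obese mice, and the other 4 control mice lay below all of them. The log2 fold change of Slc27a4 was 0.16, with an interval of -0.03 to 0.35. Fabp2 lay at 260.3, 289.0, 383.5, 581.0 and 346.0 CPM in control mice and at 362.5, 328.8, 515.1, 428.8 and 376.0 CPM in obese mice, so that the groups overlapped. Its log2 fold change of 0.11 had an interval of -0.30 to 0.52.

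Scarb1 and Mttp varied little between these groups. Scarb1 ran from 26.5 to 30.8 CPM in control mice, with a median of 29.7, and from 25.5 to 28.3 CPM in obese mice, with a median of 27.1. Its log2 fold change was -0.12, with an interval of -0.30 to 0.06. Mttp ran from 3.47 to 5.36 CPM in control mice and from 4.22 to 5.35 CPM in obese mice, a log2 fold change of 0.13 with an interval of -0.22 to 0.48. A change of Mttp as large as that of Apob therefore lay within its interval.

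**Figure D2:**
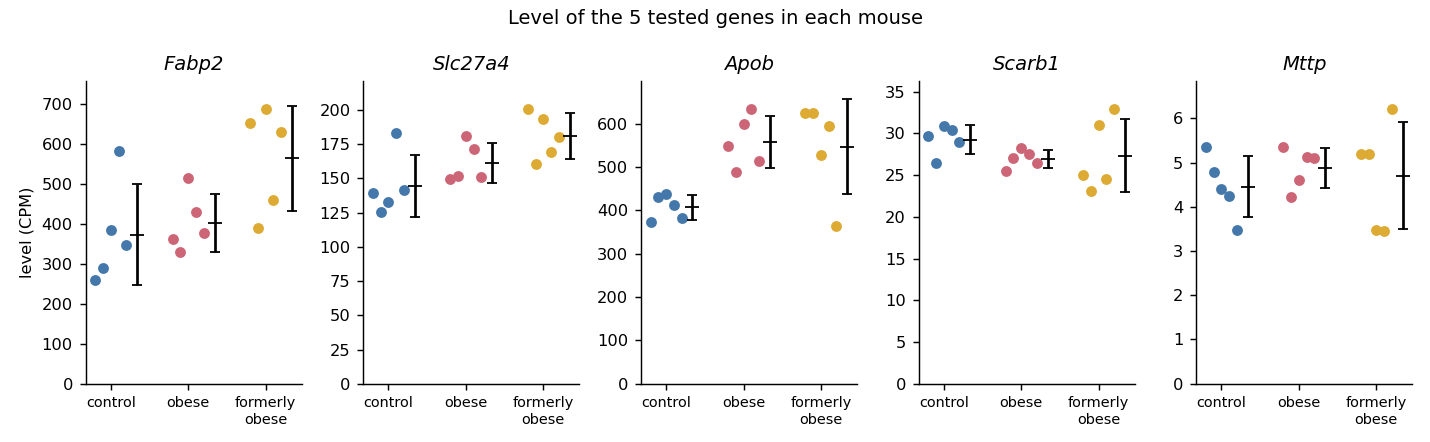
Level in CPM of the 5 tested genes, 1 point per mouse in replicate order, with mean and SD as black bars, n = 5 per group. All 5 obese mice exceed all control mice for Apob, formerly obese replicate 5 lies below the control mice for Apob at 363.1 CPM, and control replicate 4 is the highest control mouse for Fabp2 and Slc27a4.

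The second comparison asked what remained 5 weeks after the switch to the low-fat diet. It shares the control libraries with the first, so that a deviation of the control mice enters both. Apob, Fabp2 and Slc27a4 were called higher in formerly obese than in control mice, 3 of the 5 tested genes, against a background of 3.72% of all tested genes (482 of 12961, of which 240 were higher). The median log2 fold change of the 5 tested genes was 0.32, against 0 over all tested genes.

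Apob in formerly obese mice lay at 624.2, 624.9, 527.2, 594.5 and 363.1 CPM. The first 4 lay above every control mouse, and replicate 5 lay below every control mouse. The mean was 546.8 ± 110.1 CPM (SD, n = 5), with a log2 fold change of 0.43 ± 0.116 (SE), an interval of 0.18 to 0.67 and an edgeR adjusted p of 0.0653. Without replicate 5 of the formerly obese mice, the log2 fold change was 0.54, the highest of the 20 alternatives.

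Fabp2 in formerly obese mice lay at 651.2, 388.6, 687.4, 460.0 and 628.1 CPM. In 3 formerly obese mice the level was above every control mouse, and control replicate 4, at 581.0 CPM, was above the other 2. The mean of 563.1 ± 130.9 CPM (SD, n = 5) exceeded the control mean of 372.0 ± 126.4 by a log2 fold change of 0.60 ± 0.196 (SE), with an interval of 0.19 to 1.01 and an edgeR adjusted p of 0.12. The call ended without control replicate 1, 2, 3 or 5 or formerly obese replicate 1, 3 or 5, with log2 fold changes of 0.49 to 0.61, and also under DESeq2, with the compared groups only and with the GC trend removed. Over all alternatives the adjusted p ran from 0.0145 to 0.265.

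Slc27a4 in formerly obese mice lay at 201.1, 160.9, 193.4, 169.3 and 180.3 CPM. All 5 were above 4 of the control mice, and 2 were above control replicate 4 as well. The mean rose from 144.5 ± 22.3 CPM to 181.0 ± 16.6 CPM (SD, n = 5 each), a log2 fold change of 0.33 ± 0.0904 (SE) with an interval of 0.13 to 0.52 and an edgeR adjusted p of 0.0707. It was kept under each alternative except an adjusted p under 0.05.

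Scarb1 in formerly obese mice lay at 24.99, 23.06, 30.98, 24.50 and 32.97 CPM, with 3 mice below and 2 above all control mice. Its log2 fold change was -0.10, with an interval of -0.28 to 0.08. Mttp lay at 5.18, 5.20, 3.47, 3.45 and 6.22 CPM, on both sides of the control mice, a log2 fold change of 0.07 with an interval of -0.28 to 0.42. Neither difference exceeded the spread between replicates.

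**Figure D3:**
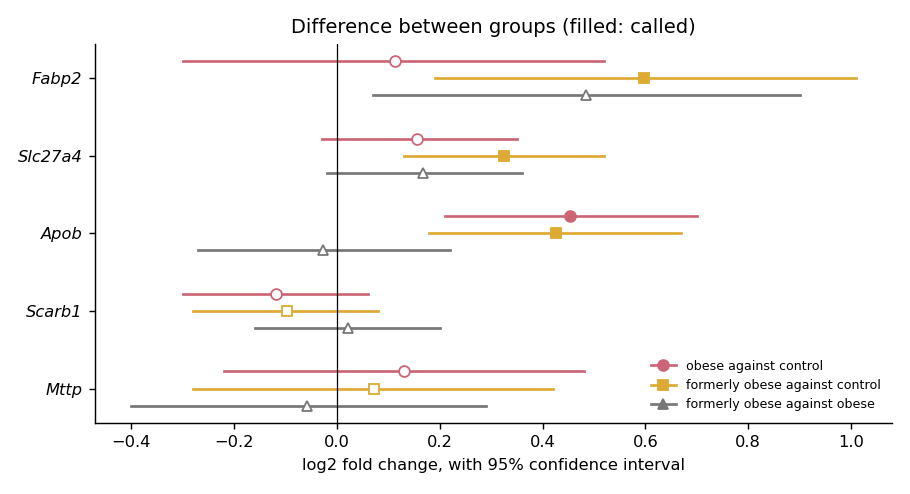
Log2 fold change of the 5 tested genes with 95% confidence intervals for the 3 comparisons, filled where the gene was called. Apob is filled against control mice in both groups, at 0.45 and 0.43, Fabp2 and Slc27a4 in formerly obese mice at 0.60 and 0.33, and no symbol is filled for formerly obese against obese mice.

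The third comparison set formerly obese against obese mice. None of the 5 tested genes was called by edgeR, against a background of 2.65% of all tested genes (343 of 12961, 159 higher and 184 lower, and 106 higher and 268 lower with scaling by library totals alone). At an unadjusted p under 0.05, 1 gene, Fabp2, differed. Fabp2 had a log2 fold change of 0.49, with an interval of 0.07 to 0.90 and an edgeR adjusted p of 0.275, and 3 formerly obese mice lay above all obese mice. Fabp2 was called without formerly obese replicate 2, with a log2 fold change of 0.60 and an edgeR adjusted p of 0.173 (over all alternatives 0.173 to 0.498). It was also called with the compared groups only (log2 fold change 0.49, edgeR adjusted p = 0.173) and with the replicate block (0.49, edgeR adjusted p = 0.195). Slc27a4 had a log2 fold change of 0.17 with an interval of -0.02 to 0.36, and Apob -0.03 with an interval of -0.27 to 0.22. For Fabp2 the call between formerly obese and obese mice thus depended on the fit, and Apob and Slc27a4 were called under none of the alternatives.

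Fabp2 and Slc27a4 moved together among mice of the same group. Over the 15 libraries, with group means removed from log2 CPM, Pearson's r was 0.87 (permutation p = 0.00065, adjusted p = 0.0065 over 10 pairs) and Spearman's rho was 0.83 (permutation p = 0.00113, adjusted p = 0.0113). Without the 2 libraries farthest from the median of Fabp2, r was 0.77. Apob did not follow them, with r = -0.03 for Fabp2 (permutation p = 0.939) and r = 0.08 for Slc27a4 (permutation p = 0.792). The other 9 pairs had adjusted p of at least 0.137 for r and 0.108 for rho, by two-sided permutation within groups. Mttp and Apob, whose proteins act together, had r = -0.26 (permutation p = 0.652) and 0.13 without the 2 libraries farthest from the median of Apob.

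**Figure D4:**
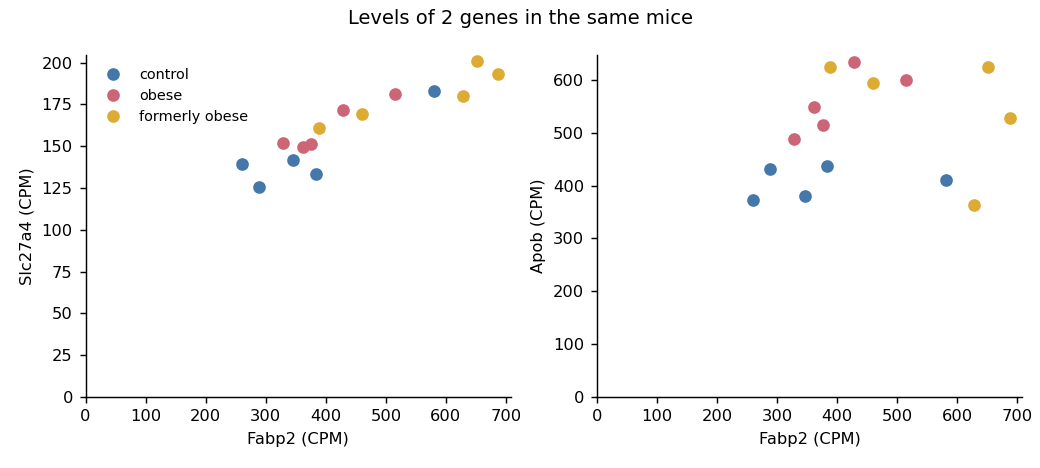
Level in CPM of Slc27a4 (left) and Apob (right) against Fabp2, 1 point per mouse and coloured by group. Slc27a4 rises with Fabp2 among the mice of each group, with r = 0.87 after removal of group means, and Apob shows no such order, with r = -0.03.

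The genes most like the called ones, by Pearson's r of log2 CPM over 15 libraries among 12961 tested genes, were different for Apob than for Fabp2 and Slc27a4. Apob was most like Itgav (r = 0.93), an integrin subunit, Prex1 (0.90) and Ermp1 (0.88). Fabp2 was most like Mgat4c (0.97), Higd1a (0.97) and Emp1 (0.96). Slc27a4 was most like Car1 (0.95), the carbonic anhydrase of surface colonocytes, Epb4.1l3 (0.94) and Abcd3 (0.94). Points of the same library share its depth and cell makeup, and these values are a description with no test.

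Markers of mature colonocytes were read beside Fabp2 and Slc27a4. Of 11 tested colonocyte markers, 5 were called higher in formerly obese than in control mice and 0 in obese mice. Of all tested genes, 3.72% and 1.58% were called in these comparisons. Without control replicate 1 or control replicate 5, 3 of these 5 calls were kept. The median of the 11 was 0.31 on the log2 scale in formerly obese mice, against 0 over all tested genes, and 9 of the 11 lay above 0. Their summed level was 8055 to 14820 CPM in control, 9019 to 13740 CPM in obese and 11760 to 17450 CPM in formerly obese mice. In each group, the mouse with the highest sum (control replicate 4, obese replicate 3 and formerly obese replicate 3) also had the highest Fabp2. Car1, at 2054 to 9702 CPM over all libraries, was the most abundant marker and weighed most in these sums. The single marker Slc26a3 was highest in control replicate 2 (1311 CPM), obese replicate 3 (1136 CPM) and formerly obese replicate 5 (1764 CPM). Car4 (581.5 to 738.3 CPM) and Ceacam20 (156.3 to 198.2 CPM), with the means of control and formerly obese mice given, kept their calls without each library. Slc26a3, the chloride exchanger of colonocytes, was higher in formerly obese than in obese mice, with a log2 fold change of 0.63, and kept that call without each library. Their part in the differences of Fabp2 and Slc27a4 was not tested.

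Markers of small intestine enterocytes were called as well. Of 23 tested, 5 were higher in obese mice, and 6 higher and 1 lower in formerly obese mice, each against control mice. The share of all tested genes called was 1.58% in obese and 3.72% in formerly obese mice. Of the 5 calls in obese mice, 2 were kept without control replicate 2 or obese replicate 3, 4 or 5, and 3 without control replicate 1, 3 or 5 or obese replicate 1. Of the 6 higher in formerly obese mice at least 4 were kept, and the 1 lower was lost without control replicate 1 or 2 or formerly obese replicate 3, 4 or 5. The list medians were 0.17 and 0.13 on the log2 scale, against 0 over all tested genes. Of the 23, 16 had a log2 fold change above 0 in obese and 15 in formerly obese mice. Their summed level was 1795 to 1915 CPM in control, 1945 to 2175 CPM in obese and 2097 to 2230 CPM in formerly obese mice, without overlap between control mice and either group. Among single tested genes, 2.47% and 3.62% were without overlap in these comparisons. A sum of genes has another spread, and no such share was computed for sums. Abundant genes weigh most in the sum, and Mep1a alone lay at 581.1 to 631.2 CPM in control and 673.7 to 767.6 CPM in formerly obese mice. Slc10a2, the ileal bile acid transporter, rose from 41.1 to 79.8 CPM in formerly obese mice, a log2 fold change of 0.96. In the same comparison 7 of 11 tested posterior Hox genes were lower, among them Hoxb13 with a log2 fold change of -0.36 and Hoxd13 with -0.52, and their summed level was 633.1 to 753.9 CPM in control and 491.7 to 608.5 CPM in formerly obese mice. Of these 7 calls, 3 were kept without control replicate 2, and 4 without control replicate 1 or formerly obese replicate 1 or 3. Of 5 tested hepatocyte markers, a cell type that also makes Apob, 3 were called lower in formerly obese than in control mice and 0 were called in obese mice. Alb was 1 of the 3, at 10.3 CPM in control replicate 5 and 1.87 to 2.98 CPM in the other control mice. Its call was kept without each library, with log2 fold changes of -1.90 to -0.95. The part of these markers in the differences of Apob, Fabp2 and Slc27a4 was not tested.

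The 5 genes under the filter are given as counts. Apoa1, the main protein of high-density lipoprotein, had 0, 0, 3, 0 and 10 counts in control mice, 9, 2, 5, 5 and 1 in obese mice and 0, 3, 1, 1 and 13 in formerly obese mice. Apoa4, made by enterocytes during fat absorption, had 3, 5 and 1 counts summed over the control, obese and formerly obese libraries, and was at 0 in 4, 3 and 4 of them. Apoc3, an inhibitor of lipoprotein lipase, had 11, 7 and 8 counts, and at most 5 in 1 library. These 3 neighbours on chromosome 9 were near the limit of detection in every group.

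The remaining 2 were as low. Fabp1 had 1, 3, 5, 3 and 5 counts in control mice, 0, 4, 2, 5 and 5 in obese mice and 5, 9, 5, 6 and 4 in formerly obese mice. Cd36, the fatty acid translocase that endothelium and macrophages also make, had 12, 3, 1, 3 and 3 counts in control mice, and 1 to 6 counts in the other 2 groups. By an exact permutation test of mean CPM (two-sided, smallest possible p = 0.00794), p over these 5 genes and 3 comparisons ran from 0.182 to 1, and 0 of 15 tests had an unadjusted p under 0.05. Differences between groups were not detectable at this depth.

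Other genes of the pathway were read from lists that name its steps. Among all tested genes, 1.58% were called in obese and 3.72% in formerly obese against control mice, and 2.65% in formerly obese against obese mice. Among 12 tested genes of luminal digestion and uptake, 1 was called, Cav1, the caveolin, which lay at 0.489 CPM in control and 1.595 CPM in formerly obese mice (log2 fold change 1.70). That call ended without control replicate 2, 4 or 5 or formerly obese replicate 1, 3 or 4, with log2 fold changes of 1.45 to 1.72. Cav1 was highest in formerly obese replicate 3 (2.36 CPM), which also had the highest fibroblast and smooth muscle sum (30.3 CPM). Formerly obese replicate 1, the next highest for Cav1 (1.92 CPM), had a sum of 8.21 CPM. The part of other cell types in the Cav1 difference was not tested. The pancreatic lipase gene Pnlip had 0 counts in all libraries. Slc27a2, a relative of Slc27a4, was at 7.62 CPM in control, 10.04 CPM in obese and 9.96 CPM in formerly obese mice, and was not called by edgeR. The paper, with DESeq2 and the same limits, lists Slc27a2 as higher in young obese than in control mice. Whether this gene is called thus differed between the paper's fit and the one used here.

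Among the intracellular binding proteins, Fabp6 was called higher in obese and Rbp2 in formerly obese mice, each against control mice. Fabp6, the ileal bile acid binding protein, lay at 28.7, 16.2, 22.1, 24.6 and 19.9 CPM in control mice and at 49.7, 29.3, 51.9, 41.1 and 113.7 CPM in obese mice. All obese mice were above all control mice, and obese replicate 5 stood far above the others. The log2 fold change was 1.36 ± 0.272 (SE, edgeR adjusted p = 0.0678), and 0.95 without that mouse. Rbp2, a retinol binding protein of the intestine, rose from 12.6 ± 3.12 to 18.6 ± 2.72 CPM (SD, n = 5) in formerly obese mice, and its call was kept under all 20 alternatives.

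Genes that rebuild triglyceride were called in both directions, 1 higher and 1 lower in obese mice and 3 higher and 1 lower in formerly obese mice of 16 tested. The list medians were 0.02 and 0.04 on the log2 scale, against 0 over all tested genes. Dgat2, an acyltransferase of the last step, lay at 65.1, 59.6, 53.9, 58.0 and 52.8 CPM in control mice and at 72.3, 74.1, 86.5, 96.7 and 88.2 CPM in obese mice, without overlap. Its log2 fold change was 0.53 ± 0.108 (SE, edgeR adjusted p = 0.0678) in obese and 0.37 ± 0.108 (SE, edgeR adjusted p = 0.0823) in formerly obese mice. Gpam, the mitochondrial enzyme that starts the glycerol phosphate route, fell in both. Control mice had 57.4 ± 5.26, obese mice 45.05 ± 3.92 and formerly obese mice 45.5 ± 3.64 CPM (SD, n = 5). Its log2 fold changes were -0.35 and -0.33, with edgeR adjusted p of 0.0723 and 0.0276. Agpat9, another acyltransferase, rose from 17.4 to 23.6 CPM in formerly obese mice and kept its call under all 20 alternatives. Lpin2 rose from 57.8 to 76.0 CPM there, and its call ended without control replicate 1, 2 or 3 or formerly obese replicate 1 or 3, with log2 fold changes of 0.32 to 0.40.

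Of 20 tested genes of chylomicron assembly and secretion, Creb3l3 was called in obese mice and none in formerly obese against control mice. Creb3l3 encodes a transcription factor known to act on apolipoprotein genes of liver and intestine. It lay at 4.80, 3.41, 3.29, 4.56 and 4.05 CPM in control mice and at 11.7, 9.17, 13.6, 12.3 and 14.8 CPM in obese mice, without overlap, a log2 fold change of 1.61 ± 0.337 (SE, edgeR adjusted p = 0.0723). In formerly obese mice it was at 15.3, 3.45, 7.25, 5.32 and 2.71 CPM, a range that covered both other groups. Prap1 was called between formerly obese (21.2 CPM) and obese mice (12.3 CPM), and its call ended without obese replicate 1, 2, 4 or 5 or formerly obese replicate 1, 3, 4 or 5, with log2 fold changes of 0.67 to 0.82, and under DESeq2 (0.78). The editing enzyme of Apob messenger RNA, Apobec1, had 42.7, 44.0 and 48.4 CPM in control, obese and formerly obese mice and was not called.

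Other apolipoproteins and lipoprotein genes gave few calls. Of 11 tested apolipoproteins, Apol7a was higher in formerly obese than in control mice (15.7 against 10.4 CPM) and Clu lower in formerly obese than in obese mice (10.2 against 16.4 CPM). The call of Apol7a ended without control replicate 1, 2 or 3 or formerly obese replicate 4 or 5 (log2 fold change 0.49 to 0.54), and that of Clu without obese replicate 4 or 5 or formerly obese replicate 3 or 5 (-0.66 to -0.53). Apol10a, the most abundant of the list at 235.1 to 389.5 CPM, was not called. Of 16 tested genes of lipolysis, receptors and efflux, Lipa, the lysosomal lipase, was called in both groups against control mice, at 53.1, 64.7 and 66.2 CPM in control, obese and formerly obese mice. Its call in obese mice ended without control replicate 1, 2, 3 or 5 or obese replicate 1, 3, 4 or 5 (0.22 to 0.31) and under RLE size factors, no filter on low counts and removal of the GC trend (0.28 to 0.29), and that in formerly obese mice without control replicate 1 or formerly obese replicate 1 (0.26 to 0.27). Lipg, the endothelial lipase gene, was higher in formerly obese (78.5 CPM) than in obese mice (56.9 CPM). Vldlr was also higher there (24.1 against 19.1 CPM), a call that ended without obese replicate 1, 2, 4 or 5 or formerly obese replicate 1, 3 or 5 (0.28 to 0.38), and under upper-quartile scaling, library totals, a minimum of 10 counts in every library and removal of the GC trend (0.30 to 0.33).

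Of 20 tested regulators of enterocyte lipid genes, 3 were called in formerly obese mice against control mice and none in obese mice. Prdm1 rose from 1.75 to 3.39 CPM and kept its call under all 20 alternatives, and against obese mice (2.21 CPM) its call ended without obese replicate 1, 2 or 5 or formerly obese replicate 1, 2 or 4 (0.51 to 0.61). Nr1h4, the bile acid receptor FXR, rose from 114.1 to 137.8 CPM, and its fold fell under 1.2 without control replicate 2, 3 or 5 or formerly obese replicate 1, 2 or 4 (0.25 to 0.26) and under upper-quartile scaling, library totals and removal of the GC trend (0.24 to 0.26). Hnf4g rose from 72.1 to 86.7 CPM, a call that ended without control replicate 1 or 3 or formerly obese replicate 5 (0.19 to 0.26), and also under upper-quartile scaling, library totals, the replicate block and removal of the GC trend (0.21 to 0.26). Among 21 tested PPAR targets, Creb3l3, described above, was called in obese mice. The median log2 fold changes of these lists lay between -0.06 and 0.28, against 0 over all tested genes.

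DNA methylation was a further readout, from whole-genome bisulfite sequencing of obese against control mice. The deposited list holds 8199 differentially methylated regions (DMRs), 4123 with higher methylation in obese mice (hyper) and 4076 with lower (hypo), with no value per mouse, and all 8199 begin and end on a CpG of GRCm38. Within 100 kb of the gene body, 6 of the 10 genes had at least 1 DMR, against 56.6% of all gene entries. Apob, Mttp, Fabp2 and Cd36 had none. The 3 neighbours Apoa1, Apoc3 and Apoa4 shared the same 5 DMRs, all hyper, and 0.277% of all gene entries (69 of 24918) had 5 or more hyper DMRs in this distance. They are 1 locus and not 3 observations, and its RNA was barely detected in every group.

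**Figure D5:**
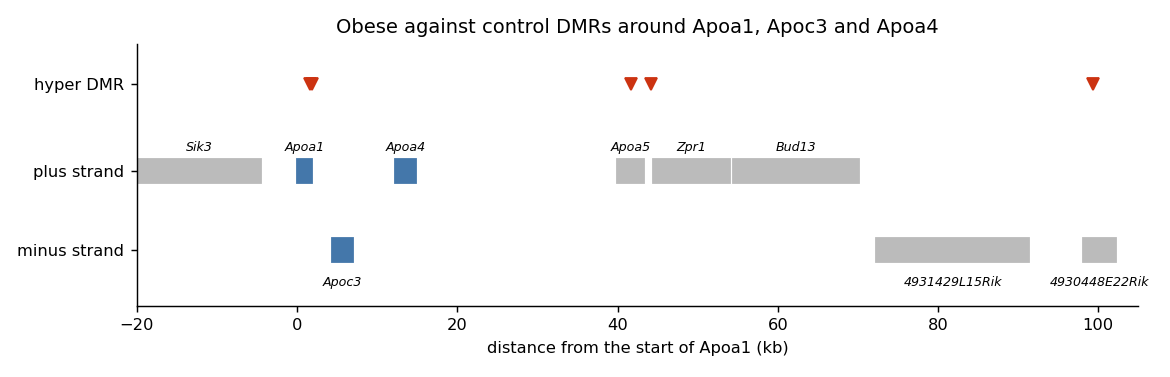
Position in kb from the start of Apoa1 of the 5 hyper DMRs (triangles) and of annotated genes (boxes, Apoa1, Apoc3 and Apoa4 in blue), obese against control mice. Triangles overlap at 1.68 and 1.93 kb, others lie at 41.6, 44.2 and 99.3 kb, and no hypo DMR falls in the window.

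The 4 of these DMRs within 50 kb of Apoa1, each with 2 CpGs, are shown because they are where methylation differed beside genes of the chain. The runs give the plus strand of GRCm38.p6 with 30 bases on either side and every CpG in capitals. The first DMR, chr9:46230299-46230314, lies in a coding exon of Apoa1, the second, chr9:46230556-46230559, starts 87 bases past the end of Apoa1, the third, chr9:46270251-46270261, lies in a coding exon of Apoa5, and the fourth, chr9:46272837-46272860, between Apoa5 and Zpr1.
Apoa1 coding exon DMR: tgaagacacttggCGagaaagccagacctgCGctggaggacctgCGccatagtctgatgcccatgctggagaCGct
Apoa1 downstream DMR: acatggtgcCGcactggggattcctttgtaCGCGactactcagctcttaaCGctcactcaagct
Apoa5 coding exon DMR: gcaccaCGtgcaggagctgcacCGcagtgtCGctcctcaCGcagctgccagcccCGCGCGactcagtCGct
Apoa5 to Zpr1 DMR: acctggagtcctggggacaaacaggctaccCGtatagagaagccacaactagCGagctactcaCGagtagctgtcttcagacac
The fifth, chr9:46327957-46327970, lies 97.5 kb from Apoa1 in a noncoding exon of 4930448E22Rik. For Apoc3, which is read on the minus strand, the nearest DMRs lay 2.49 and 2.74 kb past its end, and for Apoa4 10.3 and 10.5 kb before its start.

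Slc27a4 had 1 hyper DMR 2.34 kb upstream and 1 hypo DMR 24.9 kb upstream, in a coding exon of Trub2 (chr2:29777761-29777773). The hyper DMR, chr2:29800143-29800340, is the longest near the 10 genes, with 198 bases and 2 CpGs at its ends, shown in capitals on the plus strand of GRCm38.p6, and it lies outside the promoter window printed above.
Slc27a4 upstream DMR: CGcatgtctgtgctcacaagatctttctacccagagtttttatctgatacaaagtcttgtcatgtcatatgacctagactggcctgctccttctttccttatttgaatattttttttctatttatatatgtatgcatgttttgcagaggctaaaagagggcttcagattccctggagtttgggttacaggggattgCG
Slc27a4 was not called in obese mice, the group in which this DMR was found, and its log2 fold change there was 0.16. Fabp1 had 1 hypo DMR 55.0 kb away in an intron of Smyd1, and Scarb1 1 hypo DMR 95.3 kb away between genes. Within 10 kb, Apoa1, Apoc3 and Slc27a4 had a DMR, 3 of 10 genes against 18.8% of all gene entries. The body of 1 gene, Apoa1, overlapped a DMR, against 11.2% of all gene entries. Apob, called in obese mice, had no DMR within 100 kb, and no amplicon CpG of BSP-seq lay within 100 kb of any of the 10 genes.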

How the data were processed

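RNA-seq, bisulfite amplicon (BSP-seq) and whole-genome bisulfite (WGBS) libraries, 15 each in 3 groups of 5, were grouped by the sample labels, which name no batch. Raw counts per gene were deposited by the authors, who aligned TruSeq Stranded paired-end reads with TopHat (2.0.4 in the submitters' processing notes, build mm10) and counted them with HTSeq. The strand mode of counting was not given in the sources used here, but no exon of the 10 genes overlaps another gene in RefSeq GRCm38.p6. BSP-seq was deposited as a methylated fraction at each amplicon CpG, and WGBS as a DMR list from the Rao-Scott likelihood ratio test with positions only. The authors' tables of fold changes and p-values for the comparisons against control mice were not used.

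Counts were tested in R 4.3.3 with edgeR 4.0.16 (filterByExpr, TMM scaling, 1 quasi-likelihood fit of all 15 libraries with group as the only term, adjustment over all 12961 tested entries). CPM are TMM-scaled, log2 CPM used a prior count of 2, and RPKM is CPM per kilobase of RefSeq exon. Comparison was by exact permutation for untested genes (scipy 1.17.1) and by 100000 permutations within groups for correlations. On simulated data for obese against control mice (12985 genes, 200 changed), 96% of 1.5-fold and 98% of 2-fold changes were called, with 37 false calls among unchanged genes. In the simulated formerly obese against control mice, where no gene was changed, 0 calls were made. Each gene was drawn on its own, and changes were planted only in well-counted genes. Recovery of smaller changes, such as those of Apob and Slc27a4, was not measured. The smallest difference between libraries of a group was 5.72 times the sampling noise, so none was a copy. The same replicate numbers did not pair the mice (correlations -0.231 to 0.333). Each library is 1 mouse per the study's methods. Intervals cover the spread between mice, and limits by counts cover counting error only.

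Promoter sequences came from RefSeq GRCm38.p6 for 8 of the 10 genes (not Apoc3 and Scarb1), and DMR windows from the genome. DMR positions were read as zero-based. The members and lists were chosen with earlier results of these data known. Text names all 10 genes, pathway genes called in any comparison, abundant markers and, chosen after their values were seen, called markers that kept the call without each library, and for each called member the 3 genes of highest correlation. WGBS values per mouse were not analysed here. Results of some list genes are not reported here.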

Additional observations from a re-analysis of the deposited data

Results flagged for a closer look

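Within groups of 5 mice, 7 of 30 combinations of gene and group held a mouse whose gap to the nearest other exceeded 0.71 of the group's range, a limit that chance passes in about 1 of 20 groups. That rate is for continuous values and does not hold for genes near 0 counts. There, 1 library with counts among libraries at 0 is always flagged. Of the 7, 1 was a tested gene, Slc27a4, at 182.9 CPM in control replicate 4. Without that mouse the log2 fold change of Slc27a4 was 0.26 in obese and 0.42 in formerly obese mice, against 0.16 and 0.33 with it. That mouse also had the highest summed colonocyte markers of the control group, 14820 CPM.

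The other 6 rest on few counts. They were Apoa1 at 0.643 CPM (10 counts) in control replicate 5 and at 0.735 CPM (13 counts) in formerly obese replicate 5, Apoa4 at 0.185 CPM (3 counts) in control replicate 4, at 0.240 CPM (4 counts) in obese replicate 5 and at 0.0445 CPM (1 count) in formerly obese replicate 3, and Cd36 at 0.747 CPM (12 counts) in control replicate 1. Control replicate 5 also had the highest Alb of all libraries, at 10.3 CPM, while formerly obese replicate 5 had 1.75 CPM. Of the untested hepatocyte markers, Fga, Fgb and Cyp2e1 reached 18, 11 and 12 counts in a control library. They reached at most 0.0624, 0.126 and 0.187 CPM in obese mice and were at 0 in formerly obese mice. Apoh and Hp were highest in an obese library. A link between Apoa1 and Alb or the other hepatocyte markers was not tested.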

How the results depend on the processing

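Of 300 recomputed log2 fold changes of the 5 tested genes, 268 kept direction and call, 19 lost the call, 3 gained it and 10 changed sign. When calls needed only an adjusted p under 0.05, 0 of the 10 genes were called in obese mice, 0 in formerly obese mice and 0 between them, while 16, 282 and 25 of all genes were. For formerly obese against obese mice, 1 gene (Fabp2) was called with the compared groups only, and 1 (Fabp2) with the replicate block, where the replicate number was an added term. The block changed no other call of the 10 genes, and same-numbered mice had correlations of -0.231 to 0.333 (over 0.1 in 5 of 15 pairs). Leaving out 1 library gave 0 to 1 genes called in obese mice, 2 to 3 in formerly obese mice and 0 to 1 between them, and 40 to 331, 362 to 660 and 167 to 400 of all genes. Sign changes were near 0. For Scarb1 in formerly obese against obese mice the log2 fold change became -0.007 with library totals, -0.033 without formerly obese replicate 3 and -0.054 without replicate 5 (range 0.076 down to -0.054 when leaving out 1 library). For Apob there it became 0.002 and 0.024 without obese replicates 3 and 4 and 0.09 without formerly obese replicate 5 (range -0.079 to 0.09), and for Mttp 0.036 and 0.034 without formerly obese replicates 3 and 4 (range -0.18 to 0.036). Mttp against control mice became -0.002 without control replicate 5 and -0.05 without formerly obese replicate 5 (range -0.05 to 0.169). The cause was not tested. DMRs lay near 6 genes within 100 kb, 4 within 50 kb and 3 within 10 kb. Coding length in place of exon length kept the order of all 10 genes. With library totals, 0 of 15 tests of the low genes passed an adjusted p under 0.05, as with TMM. Under DESeq2, 45 of 54 list counts stayed within 1.5 times, and of 1275 recomputed values of list genes 259 lost the call and 0 changed sign. Depth limits Apoa1, Apoa4, Apoc3, Cd36 and Fabp1, where 3 counts equal 0.134 to 0.196 CPM.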
